A study of Mus musculus with 55 samples.

Results

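ADAM and ADAMTS proteases are metalloproteases that cut proteins at the cell surface and in the matrix around cells, and 8 of their genes are described here in the mouse optic nerve head (ONH) after a crush of the optic nerve. They are Adam8, Adam9, Adam10, Adam12, Adam17, Adam19, Adamts1 and Adamts5, and every probe set of the array that carries the symbol of 1 of these genes alone was taken. This gave 15 probe sets of 8 genes, out of 22626 probe sets and 12393 genes in all. Adam10 and Adam17 had 3 probe sets each, Adam12, Adam19 and Adamts5 had 2 each, and Adam8, Adam9 and Adamts1 had 1 each.

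The ONHs came from female C57Bl/6 mice that were 6 to 8 weeks old at surgery. In crushed samples the left nerve had been crushed for 10 seconds at a distance of 1 mm behind the eye, and in contralateral samples the ONH was that of the unoperated right eye of the same animals, taken at 1 or 3 days, at 1 or 3 weeks or at 3 months. Naïve mice had no surgery on either eye. Each of the 11 conditions had 5 biological replicates of 2 pooled ONHs, which gave 55 arrays, 45 in a first batch (naïve and 1 day to 3 weeks) and 10 in a second batch (3 months), so that batch and time cannot be told apart for the last time. The tissue was a mixture of astrocytes, microglia, oligodendrocytes, vessel cells and axons, so that a higher level from more cells of a type and from more RNA per cell cannot be told apart.

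ADAM proteases sit in the plasma membrane and release the outer part of other membrane proteins, a step called shedding, which frees cytokines and growth factors and starts signalling of receptors such as Notch. ADAMTS proteases are secreted and cut large proteoglycans of the matrix such as versican and aggrecan. In the nervous system, sheddases act on cytokines, adhesion molecules and the amyloid precursor protein, and the secreted enzymes act on proteoglycans of the glial scar.

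For 5 of the 8 genes, RefSeq gave a promoter window in mouse build GRCm38.p6 that runs from 250 bases before to 50 bases after a transcription start, 7 windows in all because Adam19 has 3. The 250 bases before the start are printed for Adam8 and Adamts1, the genes with the highest change at 1 day that have a window, and for the window of Adam19 that held the AP-1 motif. Capitals mark that motif, the binding sequence of Fos and Jun factors, and the other runs hold no marked part.
Adam8 (chr7:139992563-139992812, minus strand): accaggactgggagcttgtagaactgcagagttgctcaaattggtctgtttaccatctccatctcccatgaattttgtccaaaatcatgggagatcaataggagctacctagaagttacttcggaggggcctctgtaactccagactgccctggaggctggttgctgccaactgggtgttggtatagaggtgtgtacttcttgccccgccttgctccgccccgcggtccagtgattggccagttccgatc
Adam19 (chr11:46055734-46055983, plus strand): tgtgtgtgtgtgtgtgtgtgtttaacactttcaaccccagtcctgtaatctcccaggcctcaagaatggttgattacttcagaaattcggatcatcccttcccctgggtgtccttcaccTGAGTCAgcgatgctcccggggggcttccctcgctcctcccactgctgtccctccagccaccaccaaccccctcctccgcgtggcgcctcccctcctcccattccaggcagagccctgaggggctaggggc
Adamts1 (chr16:85803114-85803363, minus strand): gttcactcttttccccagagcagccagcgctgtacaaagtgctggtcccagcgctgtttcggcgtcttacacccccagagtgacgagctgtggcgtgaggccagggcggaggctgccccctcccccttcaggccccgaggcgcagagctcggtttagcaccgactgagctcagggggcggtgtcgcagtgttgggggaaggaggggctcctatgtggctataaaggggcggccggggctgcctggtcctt
The AP-1 motif was searched as TGANTCA and the cyclic AMP response element (CRE) as TGACGTCA, on both strands, and neither motif holds the letters of the other. AP-1 matched 1 of the 7 windows, beginning 131 bases before a start of Adam19, against 7.81% of all 32851 windows, and CRE matched 0 of 7, against 1.79%. A match describes the letters of the window only.

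On their brightest probe sets Adam8, Adam12, Adam19 and Adamts1 were called higher after the crush at 1 time or more, and none of the 8 genes was called lower. The shares of all probe sets called are given below for each time, and the share called at any time was not computed. Adam8, a protease of leukocytes, and Adam12, a protease of mesenchymal cells, were higher at each time from 1 day to 3 weeks. Adamts1 was called at 1 day alone. Adam19 was called at 1 week and was also higher at 3 days, at less than 2-fold. Adam17, the protease that releases tumour necrosis factor, rose by just under 2-fold at 1 week. At 3 months none of the 8 genes passed the test. A probe set was called at an adjusted p under 0.05 (limma, Benjamini-Hochberg over all probe sets tested) together with a change of at least 2-fold, and values below 20 were set to 20 before log2.

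At 1 day, 4 of the 15 member probe sets (3 genes) were called higher in crushed ONHs and 0 lower, where 7.02% of all 19313 probe sets tested were called higher and 7.44% lower. At 3 days, 3 (2 genes) were called higher and 0 lower, against 6.6% and 2.2% of all probe sets. At 1 week, 6 (4 genes) were called higher and 0 lower, against 6.21% and 3.53%. At 3 weeks, 3 (2 genes) were called higher and 0 lower, against 2.36% and 1.75%. At 3 months, 0 of 15 were called in either direction by limma, against 0.462% of all 18823 probe sets tested. Of the 15, 3 had an unadjusted p under 0.05, for which the share of the whole array was not computed. The methods' paired t-test called 0 as well. It was run here on log2 values with Benjamini-Hochberg adjustment, whereas the study used its p unadjusted as a filter, and this holds wherever that test is named. The median log2 fold change of the members was 0.16 at 1 day, 0.49 at 3 days, 0.94 at 1 week, 0.20 at 3 weeks and 0.23 at 3 months, and that of all probe sets tested lay between -0.03 and 0.04. The median change of the members was thus greatest at 1 week. A further 7 probe sets passed the adjusted p at less than 2-fold at 1 week and 8 did so at 3 days, all higher. The share of all probe sets that did so was not computed. Crushed and contralateral values did not overlap for 4, 10, 11, 4 and 1 of the 15 probe sets in the order of time, against 45.9%, 30.7%, 22.1%, 16.4% and 6.79% of all probe sets. At 1 day the share of members without overlap was thus below that of the whole array.

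**Figure D1:**
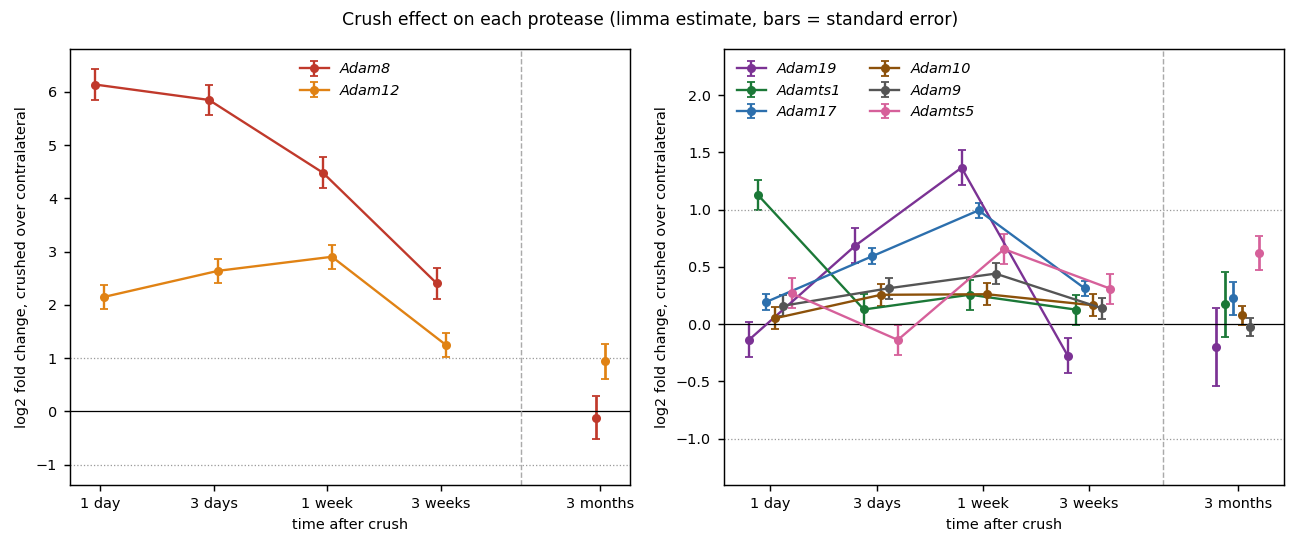
The log2 fold change of crushed over contralateral ONHs (y axis) is plotted for the brightest probe set of each gene against time after crush (x axis), with standard errors as bars, on different y scales for Adam8 and Adam12 (left) and the other 6 genes (right). Dotted lines mark 2-fold, and the dashed line separates the second batch at 3 months. Adam8 stood highest at 1 day (6.14), Adam12 and Adam19 at 1 week (2.90 and 1.37), and Adamts1 at 1 day (1.13).

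Adam8 showed the greatest change of the 8 genes. It encodes a sheddase found on neutrophils, monocytes and macrophages, which releases adhesion molecules such as L-selectin, and in resting ONHs its signal was at the dark end of the array. At 1 day its intensity was 1744, 1715, 1684, 769 and 1417 in crushed ONHs, against 17.6, 12.1, 12.5, 12.7 and 14.7 in contralateral ONHs. The 5 contralateral values were all below 20 and were set to 20, so that at this floor Adam8 was at least 70.3-fold higher (log2 6.14 ± 0.29, SE, 5 pairs; adjusted p = 3.87e-12). The size depends on the floor, and with a floor of 50 the log2 change was 4.81. At 3 days it was 1364, 1091, 1248, 1531 and 1838 in crushed ONHs, against 22.6, 17.5, 22.0, 36.3 and 23.1 in contralateral ONHs. Every crushed sample at 1 and 3 days was far above every contralateral one, and the lowest crushed value of both times was that of replicate 4 at 1 day.

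At 1 week Adam8 had 715, 433, 286, 1195 and 1001 in crushed ONHs, against 12.3, 24.2, 45.2, 32.0 and 27.2 in contralateral ONHs. At 3 weeks it had 137, 198, 95.2, 91.7 and 82.6 in crushed ONHs, against 23.9, 19.3, 24.4, 16.1 and 5.36 in contralateral ONHs. The groups did not overlap at either time, while the crushed samples at 1 week spread widely. The log2 fold change was 5.85 ± 0.29 at 3 days (adjusted p = 4.42e-12), 4.48 ± 0.29 at 1 week (9.73e-10) and 2.41 ± 0.29 at 3 weeks (8.43e-06). These estimates rest on a floor of 20, since most contralateral values lay near or below it, and with the floor of 50 the change at 3 weeks was 1.19 and still called.

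The crush effect was compared between times within the same limma model. Of the 15 member probe sets 0 had a higher and 1 a lower effect at 3 days than at 1 day, against 3.9% and 1.03% of all probe sets, and 0 and 1 at 1 week than at 3 days, against 1.08% and 2.04%. From 1 week to 3 weeks the counts were 0 and 5 (1.4% and 3.1% of all), and from 1 day to 3 weeks 0 and 2 (6.8% and 6%). For Adam8 the effect changed by -0.29 on the log2 scale between 1 and 3 days (SE 0.41; adjusted p = 0.702), so these neighbours did not differ beyond their error. It changed by -1.36 between 3 days and 1 week (adjusted p = 0.0393) and by -2.08 between 1 week and 3 weeks (0.00235). The call between 3 days and 1 week was lost in 9 of 17 other settings, with a floor of 10 (0.0739), no filter (0.0564) or a common median (0.0515), and without replicates 2 or 3 of 1 week (0.0834 and 0.0903) or 1, 2, 3 or 5 of 3 days (0.0598 to 0.0938). From 1 day to 3 weeks the decline was -3.73 (adjusted p = 9.43e-07), and it was called in all 17 other settings.

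At 3 months the crushed ONHs had an Adam8 intensity of 192, 44.2, 85.3, 175 and 226, against 227, 154, 88.2, 141 and 97.7 in the contralateral ONHs. The groups overlapped fully (log2 -0.11 ± 0.41, adjusted p = 0.907). The lowest contralateral value of this batch was above the highest contralateral value of the first (45.2), a gap for which batch and time cannot be told apart.

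Leukocyte markers were higher in crushed ONHs too, and how far their sums followed Adam8 differed with the marker set and the time. The summed intensity of 11 neutrophil marker genes was 10704 to 21235 in crushed ONHs at 1 day, against 807 to 1340 in contralateral ONHs. It was 2314 to 12738 in crushed ONHs at 3 days, against 705 to 936 in contralateral ONHs, and 1314 to 2773 against 866 to 1377 at 3 weeks. Its median in crushed ONHs was thus 17678 at 1 day and 6436 at 3 days, while the median of Adam8 was 1684 and 1364. At 1 day crushed replicate 4 had the lowest Adam8 (769), neutrophil sum (10704) and sum of 15 microglia and macrophage markers (39854) of its group. Crushed replicate 4 at 3 days had the second highest Adam8 of its group (1531) with the second lowest neutrophil sum (3510). Replicate 5 of that time, with the highest Adam8 (1838), had a neutrophil sum of 7208, above the median. The sums of the 15 microglia and macrophage markers in crushed replicates 1 to 5 at 3 days were 66346, 57003, 64519, 66483 and 68257. These stood in the same order of size as Adam8. At 3 months, when Adam8 did not pass the test, the median sum was 1461 in crushed ONHs, against 968 in contralateral ONHs. S100a8 and S100a9, which encode the main cytosolic proteins of neutrophils, had log2 fold changes of 5.11 and 5.37 at 1 day, and 5 of 7 tested markers were called higher, while Mpo, Elane and Ngp, genes of granule proteins made in the marrow, stayed below an intensity of 50 in every crushed sample of that time. The markers parted at 3 days. S100a8, S100a9, Mmp8 and Mmp9 were called higher then (4.13, 4.70, 3.58 and 3.14). Cxcr2 (0.57) and Csf3r (0.28) did not pass, and Camp was lower at less than 2-fold (-0.54). At 1 week crushed replicates 2 and 3, with the lowest Adam8, also had the lowest neutrophil sums of that group, 1859.8 and 1999, against 6266 to 11642 in the other crushed samples. The sum over 15 microglia and macrophage markers was 57138 to 87053 in crushed ONHs at 1 week, against 36344 to 42985 in contralateral ONHs, with 8 of 15 called higher. In crushed replicates 1 to 5 of 1 week this sum was 74879, 72154, 57138, 87053 and 77614, again in the order of Adam8. At 1 day it was 39854 to 57470 in crushed ONHs, against 38179 to 41945 in contralateral ONHs, with 5 of 15 called higher, such as Msr1 (log2 3.53), a scavenger receptor of macrophages, and Itgam (1.95), and 3 called lower. Those 3 were Cx3cr1 (-2.27), Tmem119 (-1.35) and P2ry12 (-2.47), genes of resting microglia. At 1 day and at 3 weeks the crushed replicates were not in the same order for the microglia and macrophage sum and for Adam8. The median of this sum in crushed ONHs was 49463 at 1 day and 74879 at 1 week, while that of Adam8 was 1684 and 715. The part of neutrophils, microglia and macrophages in the level of Adam8 was not tested.

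**Figure D2:**
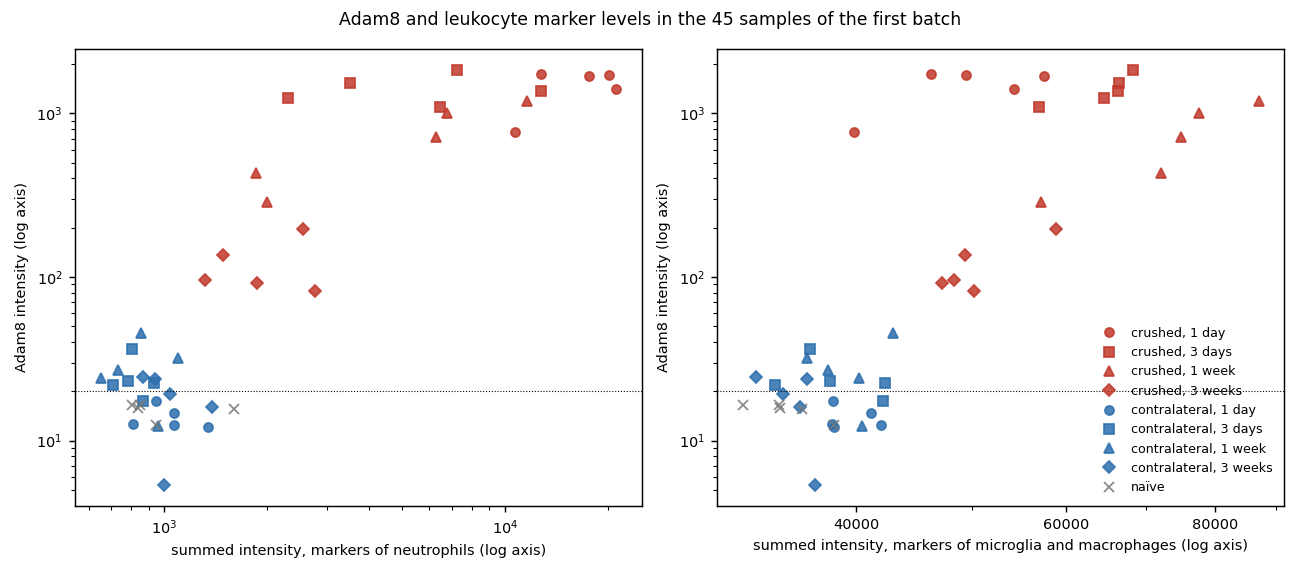
Each point is 1 of the 45 samples of the first batch, with the intensity of Adam8 (y axis, log scale) against the summed intensity of 11 neutrophil markers (left) or 15 microglia and macrophage markers (right, both x axes on a log scale). The dotted line is the floor of 20. Crushed samples at 1 day reached the highest neutrophil sums (10704 to 21235) and those at 1 week the highest microglia and macrophage sums (57138 to 87053), while contralateral and naïve samples stayed near the floor for Adam8.

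Adam12 was the other gene raised at every time of the first batch. It encodes meltrin alpha, a protease of developing muscle, bone and connective tissue that cuts insulin-like growth factor binding proteins and heparin-binding EGF. On its brighter probe set the intensity at 1 day was 932, 954, 881, 579 and 811 in crushed ONHs, against 249.8, 149, 244, 150.5 and 156 in contralateral ONHs. At 3 days it was 1747, 1238, 1312, 1161 and 1897 in crushed ONHs, against 193, 276, 203, 279 and 219 in contralateral ONHs. At both times each crushed sample exceeded each contralateral one by more than 2-fold.

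At 1 week Adam12 reached 1876, 1916, 1647, 2749 and 1731 in crushed ONHs, against 215, 267, 341, 239 and 257 in contralateral ONHs. At 3 weeks it was 630.2, 415, 459, 439.9 and 306 in crushed ONHs, against 179, 207, 169, 123 and 276 in contralateral ONHs. The groups were apart at both times, narrowly at 3 weeks. The log2 fold change was 2.15 ± 0.22 at 1 day (SE; adjusted p = 8.38e-08), 2.64 ± 0.22 at 3 days (1.05e-08), 2.90 ± 0.22 at 1 week (5.18e-09) and 1.25 ± 0.22 at 3 weeks (0.000365). The dimmer probe set gave 2.24, 2.90, 3.01 and 1.28 at these times, and both were called at all 4. At 3 weeks neither call held with the methods' paired t-test after Benjamini-Hochberg adjustment (adjusted p = 0.094 and 0.128), and that of the dimmer one did not hold without replicate 4 of 3 weeks (0.999).

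The effect on Adam12 did not differ beyond its error between 1 and 3 days (0.49 ± 0.31, adjusted p = 0.33) or between 3 days and 1 week (0.26 ± 0.31, 0.649), and it fell by 1.65 from 1 week to 3 weeks (0.00169). From 1 day to 3 weeks it changed by -0.90 and -0.96 on the probe sets (adjusted p = 0.0282 and 0.038), which passed 2-fold for 1 or both without replicates 1 or 3 of 1 day or 1 or 4 of 3 weeks, up to -1.24. At 3 months the crushed ONHs had 459, 319, 178, 759.6 and 716, against 155, 374, 145, 214 and 299.8 in the contralateral ONHs. Replicate 2 was lower in the crushed ONH, the other pairs were higher, and the groups overlapped (log2 0.94 ± 0.33, adjusted p = 0.285). Markers of fibroblasts and meninges, a list of 7 genes, had 0 called higher at any time and 1 called lower, at 1 day. Col1a1 (-0.35), Col1a2 (-0.52), Dcn (-0.51) and Pdgfra (-0.37) passed the test at 1 day at less than 2-fold. Col1a1 (0.59), Col3a1 (0.45), Col1a2 (0.34) and Dcn (0.31) did so at 1 week, higher. The sum of the 7 markers was 30412 to 38958 in crushed ONHs at 1 day, against 44140 to 54571 in contralateral ONHs, and 56078 to 68225 against 45068 to 52038 at 1 week. The part of these cells in the level of Adam12 was not tested.

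Adam19 encodes meltrin beta, a sheddase of neuregulins that is needed in the developing heart, and it did not differ beyond its error at 1 day. At 1 day its brighter probe set had 664, 565, 526, 359 and 529 in crushed ONHs, against 672, 521, 665, 549 and 468 in contralateral ONHs. At 3 days it had 959.7, 1065, 1276, 985 and 1184 in crushed ONHs, against 580.4, 653, 634, 717 and 818 in contralateral ONHs. The groups overlapped at 1 day (log2 -0.14 ± 0.15, adjusted p = 0.476) and were apart at 3 days, with a change that passed the test at less than 2-fold (0.69 ± 0.15, 0.00119). The effect rose between these times by 0.82 ± 0.22 (adjusted p = 0.0136).

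At 1 week Adam19 had 966, 963, 1163, 1299 and 981 in crushed ONHs, against 404, 641, 306, 436 and 349 in contralateral ONHs, and at 3 weeks 331, 322, 401, 389.6 and 538 in crushed ONHs, against 556, 410.0, 401, 417 and 608 in contralateral ONHs. All crushed samples were above all contralateral ones at 1 week (1.37 ± 0.15, adjusted p = 6.61e-07), whereas 4 of 5 pairs were lower in the crushed ONH at 3 weeks (-0.27 ± 0.15, 0.216). The mean in crushed ONHs was close at 3 days and 1 week, 1094 ± 134 and 1074 ± 151 (SD, n = 5 each), while the contralateral mean was 680.4 ± 91.2 and 427 ± 130. The rise in the fold between these times thus came with a lower contralateral level, and the contrast between them did not pass (0.68 ± 0.22, adjusted p = 0.0506).

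The dimmer probe set of Adam19 was called at 1 week too (1.14 ± 0.20, adjusted p = 0.000137), but not without replicate 3 (0.83) or with the methods' t-test (adjusted p = 0.1). At 3 weeks it had 194, 185, 176, 182 and 205 in crushed ONHs, against 344, 352, 257, 229 and 254 in contralateral ONHs. Here every crushed sample was below every contralateral one, and the change of -0.59 ± 0.20 passed the test (adjusted p = 0.041) at less than 2-fold. The crush effect fell from 1 week to 3 weeks by 1.64 on the brighter probe set (6.65e-05) and by 1.72 on the dimmer (0.000599). At 3 months both overlapped between the groups (-0.20 ± 0.34 and -0.03 ± 0.27). Neither probe set met the study's criteria as rebuilt here, which ask for a lower bound of the fold above 2, at any time.

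**Figure D3:**
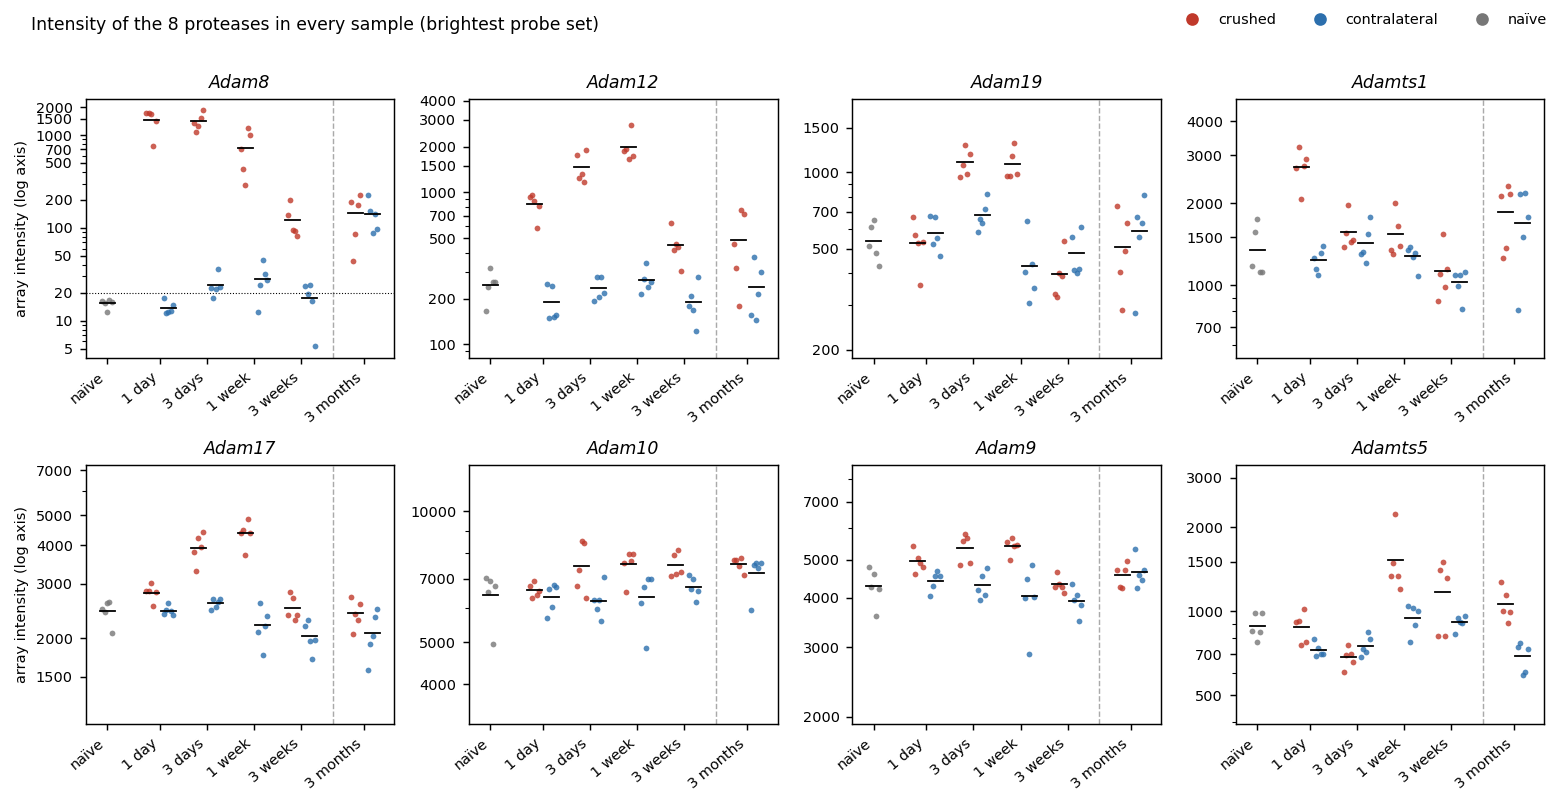
The intensity of the brightest probe set of each gene is plotted for all 55 samples (y axis, log scale, a different range in each panel) by condition (x axis), with crushed samples in red, contralateral in blue and naïve in grey, and a black line at each mean of 5. The dotted line in the first panel is the floor of 20, and the dashed lines separate the second batch. The crushed samples stood apart from the contralateral ones for Adam8 and Adam12 from 1 day to 3 weeks, for Adam19, Adam17 and Adam9 at 3 days and 1 week, for Adamts1 at 1 day, and for Adamts5 at 1 week and 3 months.

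Adam17 encodes the tumour necrosis factor converting enzyme, which also sheds ligands of the EGF receptor and receptors of cytokines. Its brightest probe set had 2835, 2839.8, 3019.8, 2540.5 and 2828 in crushed ONHs at 1 day, against 2391, 2465, 2611, 2444 and 2370.5 in contralateral ONHs. At 3 days it had 3796, 3298, 4231, 3944 and 4408 in crushed ONHs, against 2464, 2684, 2529, 2631 and 2671 in contralateral ONHs. At 1 week it had 4371, 4500.2, 3735, 4859 and 4383 in crushed ONHs, against 2100.5, 2596, 1765, 2189 and 2367 in contralateral ONHs. The groups overlapped at 1 day, when crushed replicate 4 lay below the highest contralateral value, and were well apart at the later times.

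The replicates of Adam17 lay close together, and small changes passed the test. The log2 fold change was 0.19 ± 0.07 at 1 day (adjusted p = 0.0215), 0.59 ± 0.07 at 3 days (9.09e-07), 0.99 ± 0.07 at 1 week (1.62e-09) and 0.31 ± 0.07 at 3 weeks (0.00241), with 5 of 5 pairs higher each time. It rose between 1 and 3 days (0.40, adjusted p = 0.00791), again between 3 days and 1 week (0.40, 0.0147), and fell from 1 week to 3 weeks (-0.68, 0.000143). Between 3 days and 1 week the mean log2 level was 11.94 and 12.09 in crushed ONHs, while it was 11.34 and 11.09 in contralateral ONHs, so that the rise in the fold came more from the lower contralateral level. The other probe sets gave 0.82 and 0.90 at 1 week, and none of the 3 was called at 2-fold, although the brightest passed it without replicate 2 (1.04) or replicate 5 (1.02) of 1 week, and the dimmest without replicate 5 (1.06). At 3 weeks Adam17 had 2377, 2831, 2694, 2288 and 2375 in crushed ONHs, against 2198, 2294, 1955, 1713 and 1973 in contralateral ONHs, with overlap, and at 3 months the change was 0.23 ± 0.14 (0.483).

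Adam10 encodes the sheddase that starts Notch signalling and makes the first cut of the amyloid precursor protein outside the amyloid pathway. On its brightest probe set the mean was 7552 ± 598 in crushed ONHs at 1 week, against 6337 ± 893 in contralateral ONHs, and 7472 ± 1002 against 6226 ± 538 at 3 days (SD, n = 5 each). Both changes were 0.26 ± 0.10 (adjusted p = 0.0391 at 3 days and 0.0344 at 1 week) and the groups overlapped, with 4 of 5 pairs higher each time. Without replicate 3 the change at 1 week was 0.15 (0.227). Its change was 0.05 at 1 day, 0.17 at 3 weeks and 0.08 at 3 months, and none of these 3 passed.

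The 2 other probe sets of Adam10 gave larger estimates. One of them had 3039, 1779, 2514, 1895 and 2757 in crushed ONHs at 1 week, against 1031, 1297, 563, 1526 and 1783 in contralateral ONHs, and was called (1.02 ± 0.20, adjusted p = 0.00037) although the lowest crushed value lay below the highest contralateral one. This call was lost in 4 of 14 other settings, namely without replicate 3 (0.74) or replicate 1 (0.89), with a common median (0.96) and with the methods' t-test (adjusted p = 0.132). Its fall from 1 week to 3 weeks (-0.84, adjusted p = 0.0509) was called without replicate 4 of 1 week (-1.02, 0.0219). The dimmest changed by 0.94 ± 0.18 at that time (0.000375). All 3 estimates of Adam10 at 1 week were above 0, and the difference between them was not tested.

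Adam9, meltrin gamma, sheds growth factors and adhesion molecules and is known in the retina for its part in photoreceptor upkeep. It had 4852, 5585, 5785, 5652 and 4885 in crushed ONHs at 3 days, against 4181, 3954, 4551, 4066 and 4753 in contralateral ONHs, and 5531, 4975, 5681, 5423 and 5431 in crushed ONHs, against 3987, 4461, 2876, 4833 and 4026 in contralateral ONHs, at 1 week. Crushed samples were above contralateral ones at both times, by 0.31 ± 0.09 (adjusted p = 0.00937) and 0.44 ± 0.09 (0.000613), well short of 2-fold. At 3 days the median intensity of the arrays was also higher on the crushed side, 522 to 547 against 459 to 502 in contralateral ONHs. At 1 day the change was 0.16 (0.147) with 5 of 5 pairs higher, at 3 weeks 0.14 (0.303) and at 3 months -0.02 (0.904).

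Adamts1 encodes a secreted protease that cuts versican and aggrecan and limits the growth of vessels. At 1 day it had 2706, 3232, 2081, 2730.2 and 2899 in crushed ONHs, against 1256, 1145, 1092, 1307 and 1389.6 in contralateral ONHs. At 3 days it had 1378, 1559.8, 1973, 1438 and 1459 in crushed ONHs, against 1304, 1321, 1206, 1543 and 1777 in contralateral ONHs. The groups were apart at 1 day (1.13 ± 0.13, adjusted p = 4.37e-07) and overlapped at 3 days (0.13 ± 0.13, 0.469). The change at 1 day did not meet the study's criteria as rebuilt here.

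The change of Adamts1 was 0.26 at 1 week (adjusted p = 0.122), 0.13 at 3 weeks (0.542) and 0.17 at 3 months (0.787). The crush effect fell by 1.00 between 1 and 3 days (0.00103) and by 1.00 between 1 day and 3 weeks (0.000268), and the effects at 3 days and 3 weeks were both 0.13. Both contrasts stood at the edge of 2-fold. The first was under it without replicate 2 of 1 day (-0.91) or replicates 1, 4 or 5 of 3 days (-0.99, -0.95 and -0.90), with an adjusted p of 0.000264 to 0.00437 over all settings. The other was under it without replicate 2 of 1 day (-0.91) or replicates 1 or 5 of 3 weeks (-0.89 and -0.98) and with quantile normalization (-0.99), with an adjusted p of 6.81e-05 to 0.0011.

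Adamts5, the main aggrecanase of mouse cartilage, passed the test on its brighter probe set at 1 week alone. That probe set had 1336, 1489.8, 2227, 1333 and 1203 in crushed ONHs at 1 week, against 1041, 774, 1022, 891 and 999 in contralateral ONHs. The groups were apart and the change passed at less than 2-fold (0.66 ± 0.13, adjusted p = 0.000403). At 3 months it had 1266, 997, 1145, 903 and 989.8 in crushed ONHs, against 742, 769.7, 591, 605 and 728 in contralateral ONHs. These groups did not overlap either, the single probe set of the 15 for which this was so at 3 months, but the change did not pass over the array (0.62 ± 0.15, 0.136).

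The dimmer probe set of Adamts5 gave other estimates than the brighter one. At 1 day it fell by 0.30 (SE 0.11, adjusted p = 0.0327) with 4 of 5 pairs lower, while the brighter one was 0.27 higher (0.0876) with 5 of 5 pairs higher. At 1 week it changed by 0.14 (0.338). Across the 45 arrays of the first batch the log2 values of the pair had a correlation of 0.63, lower than that of the probe sets of Adam12 (0.99) or Adam19 (0.91), as a description over arrays that share the conditions. For Adam17 the other probe sets had 0.86 and 0.58 with the brightest, and for Adam10 0.68 and 0.55.

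**Figure D4:**
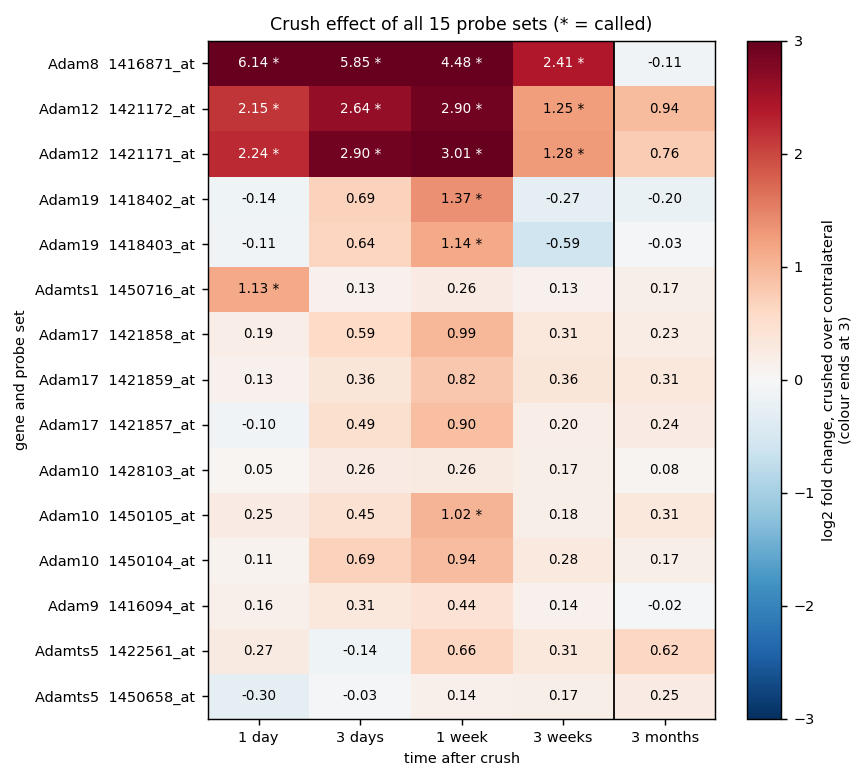
The log2 fold change of crushed over contralateral ONHs is given in numbers and colour for each of the 15 probe sets (rows, the brightest of each gene first) at each time (columns), and an asterisk marks a call at an adjusted p under 0.05 and 2-fold. The line before the last column separates the second batch. The calls lay in Adam8 and Adam12 from 1 day to 3 weeks, in Adamts1 at 1 day, and in Adam19 and 1 probe set of Adam10 at 1 week, 16 in all.

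One contralateral sample bears on the 1 week values. Replicate 3 of the contralateral ONHs at 1 week was the lowest of its 5 for 9 of the 15 probe sets, with 563 against 1031 to 1783 for the Adam10 probe set called there, 1765 against 2100.5 to 2596 for Adam17, 2876 against 3987 to 4833 for Adam9 and 306 against 349 to 641 for Adam19. Its median intensity, 502, lay within the range of 485 to 532 of its group. Some of the 9 probe sets belong to the same gene, and how often this sample was lowest over the whole array was not counted. Without this pair 4 probe sets were called in place of 6, the median change of the members was 0.79 in place of 0.94, and 11 of the 15 changes were smaller. Adam8, both probe sets of Adam12 and the brighter one of Adam19 (1.23, adjusted p = 6.59e-06) were still called.

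No difference from naïve ONHs was called in the contralateral ONHs. At each of the 4 times, 0 of 14 probe sets tested were called by limma, and 0 met the study's criteria, while 1, 1, 3 and 4 had an unadjusted p under 0.05 in the order of time. For that unadjusted p the share of the whole array was not computed. The calls over all 18669 probe sets tested were 0% at 1 day and 3 days, 0.112% at 1 week and 0.691% at 3 weeks. Adam8 was not tested here because it stayed below an intensity of 50, with 16.4, 15.7, 12.5, 16.6 and 15.8 in naïve ONHs. Adam17 was the only member to pass the adjusted p, at 3 weeks, with 2198, 2294, 1955, 1713 and 1973 in contralateral ONHs, against 2485, 2434, 2607, 2615 and 2087 in naïve ONHs. The groups overlapped and the change was small (-0.27 ± 0.09, adjusted p = 0.0458). Adamts1 changed by -0.38 ± 0.13 at that time (0.0585).

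The other genes had these levels in naïve ONHs. Adam12 had 166, 239, 316, 258 and 256 on its brighter probe set and Adam19 had 512, 609, 650.3, 482 and 427 on its own. Adamts1 had 1171, 1562, 1747, 1121 and 1118, and Adamts5 had 847, 982, 776, 839 and 988. In contralateral ONHs at 1 day Adamts5 had 791, 692, 736, 702 and 702, which overlapped with the naïve values only through replicate 1, and the difference of -0.29 ± 0.09 did not pass over the array (adjusted p = 0.58). Adam9 ranged from 3603 to 4791 in naïve ONHs and the brightest probe set of Adam10 from 4952 to 7033, with replicate 4 lowest for both.

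Relatives of the 8 genes were described from lists of textbook members, by the brightest probe set of each. None of the other ADAM genes was called at any time, 0 of 10 tested from 1 day to 3 weeks and 0 of 9 at 3 months. The others of the 19 on the array were too dim to test. Some passed the adjusted p at less than 2-fold, namely Adam3 (-0.87), Adam23 (-0.83) and Adam5 (-0.68) at 1 day. Adam5 was higher at 1 week (0.67) and 3 weeks (0.61), and Adam22 lower at 3 days (-0.57) and 3 weeks (-0.46). A further gene of this list was higher at 3 days (0.34) and 3 weeks (0.44). Of 6 other ADAMTS and ADAMTS-like genes, 1 was called higher and 2 lower at 1 day, 0 and 0 at 3 days, 3 and 1 at 1 week, and 2 and 0 at 3 weeks. Adamts8, a protease known to limit vessel growth, had a log2 fold change of -1.43 ± 0.18 at 1 day and of 1.25 ± 0.18 at 1 week, and Adamts10, which binds fibrillin microfibrils, of -1.09 ± 0.21 at 1 day and 1.53 ± 0.21 at 3 weeks. Adamts15, a cutter of versican, changed by 1.56 ± 0.20 at 1 week and 1.16 ± 0.20 at 3 weeks. These 3 genes had their highest fold at 1 week or 3 weeks, when Adamts1 did not pass the test.

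Of 6 inhibitors, Timp1, a secreted inhibitor of metalloproteases that also blocks Adam10, was called higher from 1 day to 3 weeks, with log2 fold changes of 2.75, 2.34, 1.79 and 1.25. Timp4 and Reck, a membrane inhibitor, were called lower at 1 day (-2.05 and -1.32). Timp3, the chief tissue inhibitor of Adam17 and of aggrecanases, changed by between -0.18 and 0.04 and was not called. A2m, a protease trap of plasma and tissue, was called higher at 3 weeks (1.51) and at 3 months (1.26). The list thus held 1 higher and 2 lower at 1 day, 1 and 0 at 3 days and at 1 week, 2 and 0 at 3 weeks, and 1 and 0 at 3 months.

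Of 12 partners that carry ADAM proteases to the surface or activate them, 3 were called lower at 1 day, 2 at 3 days and 1 at 1 week, and 1 was called higher at 1 week and at 3 weeks. Tspan33, a tetraspanin that guides Adam10, had -1.63, -1.32 and -1.61 at the first 3 times. Pcsk5, a convertase of proproteins, had -1.16 at 1 day, 1.54 at 1 week and 2.04 at 3 weeks. Pcsk6, another convertase, had -2.38 at 1 day and -1.02 at 3 days, called lower at both times. Rhbdf1, an iRhom that carries Adam17, changed by 0.52 at 1 day and 0.56 at 3 days, which passed the test at less than 2-fold. Known shed membrane proteins were called higher for 6 of 34 at 1 day, 7 at 3 days, 8 at 1 week and, by 3 weeks, 3, and lower for 3, 1, 1 and 0. Ereg, an EGF receptor ligand, rose by 6.38 at 1 day and by 1.54 at 1 week, and Il1r2, a decoy receptor of interleukin-1, by 4.98 at 1 day. Ereg and Il1r2 stayed below an intensity of 50 in every contralateral sample of these times, so that these sizes depend on the floor. Trem2, a receptor of microglia, had -1.11 at 1 day and 1.99 at 1 week. Of 9 genes of matrix proteoglycans and their partners, 3 were higher and 2 lower at 1 day and at 1 week, and 1 and 1 at 3 days and at 3 weeks. Has2, a hyaluronan synthase, rose by 4.17 at 1 day, Vcan, the versican cut by Adamts1, by 1.15 at 1 day and 1.13 at 1 week, and Acan, aggrecan, by 2.20 at 1 week, while Bcan, brevican, fell by 2.03 at 1 day. Acan too was below 50 in every contralateral sample at 1 week, so that its size depends on the floor.

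The median log2 fold change of these lists at 1 week was 0.71 for the other ADAMTS genes, 0.36 for the proteoglycan genes, 0.25 for the shed proteins, 0.02 for the other ADAM genes, -0.09 for the partners and -0.15 for the inhibitors, beside 0.02 over all probe sets tested. At 1 day the other ADAMTS genes had a median of -0.52 and the other ADAM genes of -0.41, beside -0.03 over all.

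The members' patterns were set beside each other over the 9 condition means of the first batch, on their brightest probe sets, as a description of conditions that share contralateral and crushed samples. Adam9 and Adam17 were the most alike (r = 0.96), followed by Adam8 and Adam12 (0.94). Adam19 went with Adam17 (0.89) more than with Adam8 (0.56), and Adamts5 went with none of the others above 0.51. Over 1963 genes that varied across conditions, those with the pattern most like Adam8 were Eif4e2 (r = 0.993), Ripk3 (0.993) and Nubp1 (0.992). For Adam12 they were Gla (0.991), Colgalt1 (0.989), an enzyme that adds sugar to collagen, and Col5a2 (0.984), a collagen chain. For Adamts1 they were Itga7 (0.962), Pprc1 (0.954) and Zc3h12a (0.95), and for Adam19 Mogat2 (0.925), Cenpf (0.898) and Psrc1 (0.895).

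The arrays of the first batch had median intensities of 459 to 554 and those of the second 494 to 598. Of the 9 photoreceptor markers none was called at any time, but their sum varied widely within groups, from 398 to 81164 among contralateral ONHs at 1 week, and at 3 months from 449 to 58683 in crushed ONHs against 476 to 109758 in contralateral ONHs. Astrocyte markers, which define the tissue, summed to 35127 to 45731 in crushed ONHs at 1 day, against 60697 to 66084 in contralateral ONHs, with 3 of 10 called lower. Markers of axons and ganglion cells were called lower for 0, 4, 6, 7 and 5 of 8 genes in the order of time and those of oligodendrocytes for 5, 2, 6, 4 and 2 of 8. The part of these cells in the results above was not tested.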

How the data were processed

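Total RNA of ONHs was amplified with the NuGEN Ovation system, and the labelled cDNA was hybridized to Affymetrix Mouse Genome 430A 2.0 arrays. The authors deposited 1 intensity per probe set on a linear scale, from DChip, where arrays were brought to a common scale on an invariant set of probes and perfect and mismatch probes were combined by the difference model. They were used without further normalization. The table held 22690 rows, and 64 controls were left out. Values were set to at least 20 before log2, which touched 9.9% of all values and 15 of 825 member values. A probe set was tested where at least 5 arrays of a model reached 50.

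Tests were run with limma 3.58.1 in R 4.3.3 (with the package data.table, version 1.17.8), with lmFit and a trended eBayes. The 40 crushed and contralateral arrays of 1 day to 3 weeks formed 1 model with the pair as a block and a crush term per time, the 10 arrays of 3 months another, and the 25 contralateral and naïve arrays of the first batch an unpaired model. The pairing comes from the methods, in which the left and right eyes of the same 2 mice made a pair, and replicate numbers in the labels were taken as the pairs. Deviations of same-numbered samples from their group means correlated between -0.46 and 0.56 (median -0.04), over 0.1 for 8 of 25 pairs. Sequences came from RefSeq tables of GRCm38.p6. Python 3.11.15 and matplotlib 3.10.9 made the figures. The fits were tested on simulated data. The number of replicates limits the precision.

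Every probe set of the 8 genes is described, each gene by its brightest one over the 55 arrays. At most 6 genes of each list are named, those called at the most times and then with the greatest change, and for each gene called in the first batch the 3 genes with the highest correlation of condition means, among those whose means had an SD of at least 0.5. The genes and lists were chosen with earlier results of these data known. Alternatives were another floor, no filter on dim probe sets, quantile or median normalization, no trend, no block, a model for each time, each pair left out, the methods' t-test and the study's criteria (a lower 90% bound of the fold above 2, a difference above 100 and p under 0.05). The t-test used log2 values and added Benjamini-Hochberg adjustment. The criteria were rebuilt on linear values. From crush comparisons they gave 1454, 886, 822, 255 and 128 probe sets of the array in the order of time, somewhat more than the study reported. Gene names came from the platform annotation, with 20380 probe sets of 1 gene, 691 of several and 1555 of none.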

Additional observations from a re-analysis of the deposited data

Results flagged for a closer look

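Among 165 groups of 5 samples, 6 held a sample that stood apart from the others by Dixon's 95% criterion, whose error rate over all 165 would give about 8.25. That number is only a rough guide. Adam8 in naïve and in 1 day contralateral ONHs, with all values at the floor, could not be flagged, and probe sets of the same gene share arrays. For Adam8 these were crushed replicate 4 at 1 day, with 769 against 1417 to 1744 in the other crushed samples, and contralateral replicate 4 at 3 days, with 36.3 against 17.5 to 23.1. For the brightest probe set of Adam10 they were crushed replicate 2 at 1 week, with 6526 against 7592 to 7983, contralateral replicate 1 at 3 months, with 5934 against 7402 to 7600.4, and naïve replicate 4, with 4952 against 6509.7 to 7033. For the second probe set of Adam17 it was contralateral replicate 3 at 1 week, with 1455 against 2239 to 2637.

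The crush effect differed between times by the contrast of the limma model in 9 cases, all of them lower at the later time. On the log2 scale the effect on Adamts1 fell by 1.00 between 1 and 3 days and by 1.00 between 1 day and 3 weeks. The values were -1.36 for Adam8 between 3 days and 1 week, and -3.73 for Adam8 between 1 day and 3 weeks. Between 1 week and 3 weeks they were -2.08 for Adam8, -1.65 and -1.74 for the probe sets of Adam12, and -1.64 and -1.72 for those of Adam19. Over all probe sets tested, 1.03% were called lower from 1 to 3 days, 2.04% from 3 days to 1 week, 3.1% from 1 week to 3 weeks and 6% from 1 day to 3 weeks.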

How the results depend on the processing

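No member changed direction where it was called. Without the pair as a replicate block the counts of called members were 4, 3, 6, 3 and 0 in the order of time, as they were with it, and the block changed no count of the contrasts. The study's criteria gave 3 probe sets at 1 day in place of 4, 3 at 3 days as before, 3 at 1 week in place of 6 and 1 at 3 weeks in place of 3. These were Adam8 and both probe sets of Adam12, and at 3 weeks Adam8 alone, so that Adamts1, Adam19 and Adam10 met them at no time, and the methods' paired t-test gave 1 at 3 weeks. The call between 3 days and 1 week fell to 0 with a floor of 10, with no filter on dim probe sets and with arrays shifted to a common median, and the calls between 1 day and 3 weeks to 1 with quantile normalization. Leaving out each replicate in turn gave 4 at 1 day, 3 at 3 days, 4 to 8 at 1 week, 2 to 3 at 3 weeks and 0 at 3 months, and for the contrasts 0 to 1 between 1 and 3 days, 0 to 1 between 3 days and 1 week, 5 to 6 between 1 week and 3 weeks, and 1 to 4 between 1 day and 3 weeks. In all of these cases the cause was not tested. At 3 days 1274 probe sets of the array were called higher and 424 lower, against 1046 and 605 with quantile normalization and 1042 and 632 with a common median, which moved the median change of all probe sets from 0.04 to -0.09 and left the 3 called members unchanged in number. These counts do not show how much of the smaller changes at 3 days, such as those of Adam9 and Adam10, goes with the scale of the arrays. Of all the single values under these settings, 2828 kept their direction and side of the threshold, 26 dropped below it, 10 passed it, and 87, called in neither setting, turned sign. Signal over background limits Adam8 in contralateral and naïve ONHs.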
